A study of Rattus norvegicus with 90 samples.

Results

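ENSRNOT00000003075, ENSRNOT00000077177, ENSRNOT00000028781 and ENSRNOT00000082585 are 4 rat transcripts, out of 40071 transcripts listed in every deposited table, that responded strongly in hepatocytes after 9 h of exposure to thioacetamide-S-oxide. They were chosen by their estimated counts in the 9 h hepatocyte libraries, exposed against vehicle, and are followed here through all 18 conditions of cell type, dose and time. The first pair was higher after exposure at 9 h and the second pair was lower, so those directions and sizes are a description of how they were chosen and were not tested. At 24 h and in the other cell types, the members parted. ENSRNOT00000003075 kept a graded response to dose in hepatocytes and also responded in renal cells and cardiomyocytes. ENSRNOT00000077177 was high in all hepatocyte groups at 24 h, vehicle included. ENSRNOT00000028781 was counted almost only in hepatocytes, where its lowest groups were high dose at 9 h and vehicle and high dose at 24 h. ENSRNOT00000082585 was highest in cardiomyocytes and fell in renal cells at 9 h.

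Cells labelled as from Sprague-Dawley rats were exposed in culture, with 5 libraries per condition and 90 libraries in all. The paper describes the hepatocytes and the renal cells as primary. Hepatocytes received vehicle, 0.025 mM (low) or 0.125 mM (high) thioacetamide-S-oxide, renal tube epithelial cells vehicle, 0.125 mM or 0.500 mM, and cardiomyocytes vehicle, 0.50 mM or 1.50 mM, each for 9 or 24 h. Vehicle was maintenance medium, which is named for hepatocytes and renal cells only. Hepatocytes and renal cells were bought cryopreserved, no genotype other than the strain is given, and nothing states that cultures of a group came from different animals, so p-values measure the spread between cultures, which may be technical.

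Thioacetamide is a liver toxicant that becomes harmful only after the cell oxidizes it, first to the S-oxide used here and then to a product that binds proteins and lipids. Hepatocytes carry much of the body's oxidizing enzyme, and for this reason the liver is its best-known target. Freshly plated hepatocytes also lose part of their liver-specific expression in culture, so a vehicle culture is not a fixed state. A transcript is one RNA form of a gene, and kallisto, the tool used by the authors, divides a read among all transcripts that could have produced it. The tables do not pair these transcripts with genes, and none of the 4 was matched to a gene of the reference used here, so neither their functions nor their sequences are given. For the same reason the labelled cell types were not checked against marker genes.

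The lengths of the transcripts are 1134 bases for ENSRNOT00000003075, 1528 for ENSRNOT00000077177, 2118 for ENSRNOT00000028781 and 3088 for ENSRNOT00000082585, and 46.5, 56.3, 69.3 and 83.0% of all transcripts are shorter. Their estimated counts differ in how far they rest on divided reads. For ENSRNOT00000003075 and ENSRNOT00000077177 the count was whole (within 0.005) in 90 of 90 libraries, and for ENSRNOT00000028781 in 77 of 90. For ENSRNOT00000082585 it was whole in only 4 of 90, so its level is an estimate that depends on how reads shared with other transcripts were divided. Levels below are CPM, estimated counts scaled to the same sum over all transcripts in each library, and are given as mean ± SD over 5 libraries. Levels of different transcripts are compared only as deposited TPM, which is corrected for length and spans transcripts and genomic intervals together.

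Libraries held between 2993135 and 61897142 estimated counts (median 27860604), and 84.1 to 95.3% of them fell on transcripts in 89 libraries. Hepatocyte vehicle library MS-183 at 24 h stood apart, with 2993135 counts in all and 8.33% of them, or 249303, on transcripts. In that library a CPM value rested on 0 to 24.7 counts of each of the 4 transcripts, so tests and ratios that use hepatocyte vehicle at 24 h are given with and without it. The 5 libraries of that group are numbered MS-181 to MS-185, whereas the other 25 hepatocyte libraries are numbered MS-91 to MS-120. No other group has numbers in that run, so the part of this difference cannot be told apart from that of vehicle at 24 h and was not tested.

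**Figure D1:**
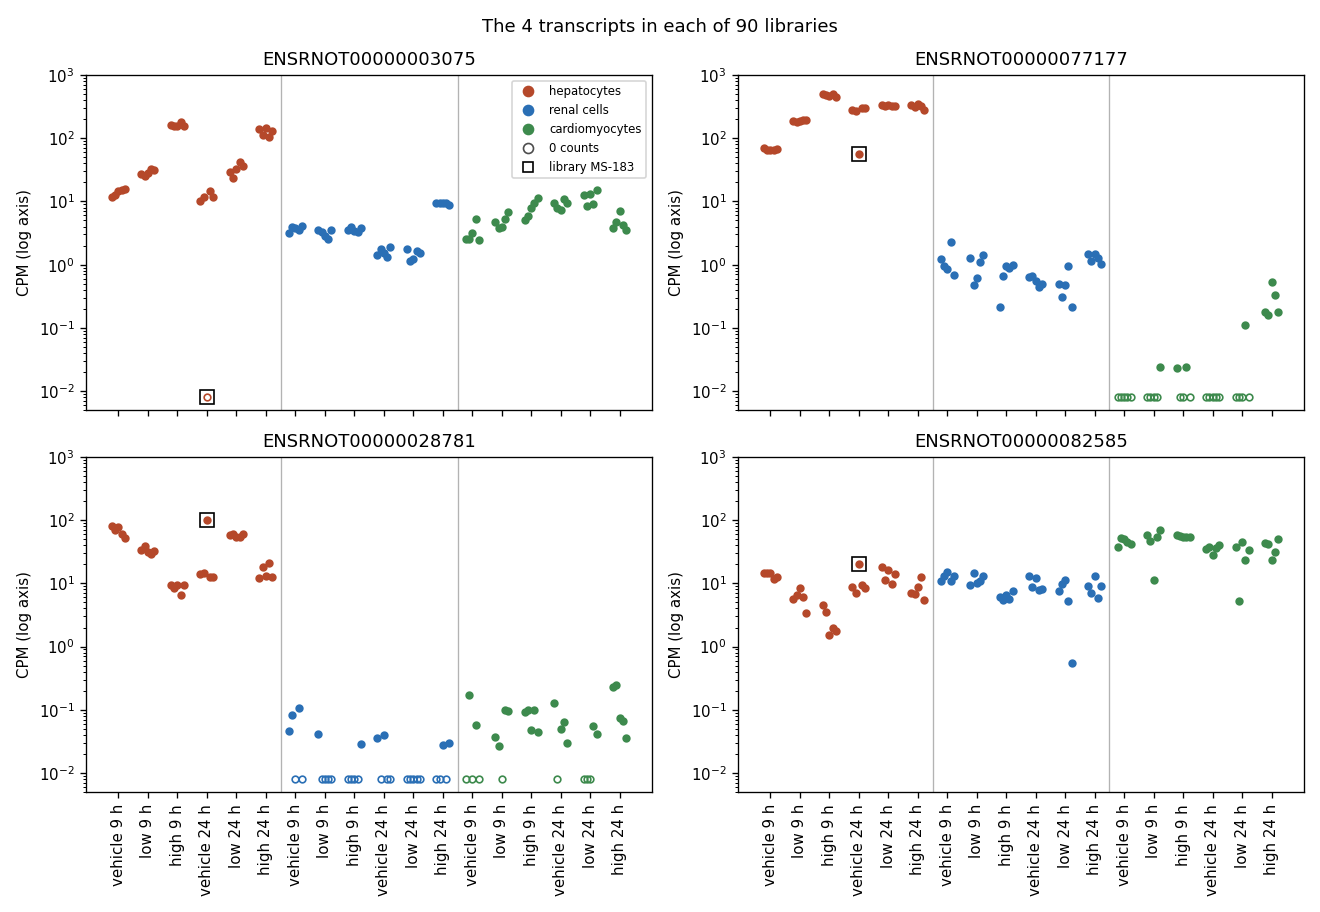
Level of each transcript in each of 90 libraries (CPM, logarithmic axis), by cell type, dose and time. Open circles at the bottom mark libraries with 0 counts and black squares mark hepatocyte library MS-183. ENSRNOT00000077177 and ENSRNOT00000028781 sit far higher in hepatocytes than in the other cells, and ENSRNOT00000082585 is highest in cardiomyocytes.

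At 9 h in hepatocytes, the values that chose the members were as follows. ENSRNOT00000003075 stood at 11.8, 12.6, 14.7, 15.0 and 15.7 CPM in the vehicle libraries, at 25.6, 26.8, 28.1, 31.1 and 32.8 CPM with 0.025 mM, and at 153.2, 153.7, 155.7, 161.5 and 177.05 CPM with 0.125 mM. The 3 groups did not overlap, and the means were 13.9 ± 1.69, 28.9 ± 2.99 and 160.2 ± 9.96 CPM, so that the high dose was 11.49 times vehicle and the low dose 2.07 times. ENSRNOT00000077177 stood at 65.04, 65.14, 65.8, 66.7 and 68.6 CPM in vehicle, at 179.7, 187, 189.5, 193 and 196 CPM with 0.025 mM, and at 439, 468, 472, 496 and 504 CPM with 0.125 mM. Its spread was narrow in every group, with means of 66.2 ± 1.49, 189 ± 6.37 and 476 ± 25.6 CPM, or 2.86 times vehicle at the low dose and 7.18 times at the high dose.

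The other pair was lower after exposure at the same time. ENSRNOT00000028781 stood at 51.1, 61.1, 69.2, 77.9 and 79.3 CPM in vehicle, at 29.4, 31.7, 31.96, 33.1 and 39.4 CPM with 0.025 mM, and at 6.63, 8.38, 9.38, 9.45 and 9.47 CPM with 0.125 mM. The groups were fully separate, with means of 67.7 ± 11.8, 33.1 ± 3.76 and 8.66 ± 1.23 CPM, which put vehicle 2.04 times above the low dose and 7.82 times above the high dose. ENSRNOT00000082585 stood at 11.9, 12.4, 14.4, 14.4 and 14.5 CPM in vehicle, at 3.41, 5.64, 6.06, 6.60 and 8.32 CPM with 0.025 mM, and at 1.54, 1.78, 1.94, 3.54 and 4.56 CPM with 0.125 mM. Both doses lay below all vehicle libraries but overlapped each other, and the high-dose values rested on 42.3 to 118.99 estimated counts per library. Its means were 13.5 ± 1.27, 6.01 ± 1.78 and 2.67 ± 1.32 CPM.

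Among the 10094 transcripts whose mean log2 CPM reached 3 in the high-dose comparison, ENSRNOT00000003075 ranked 2nd and ENSRNOT00000077177 5th by the size of an increase, and ENSRNOT00000028781 ranked 1st and ENSRNOT00000082585 8th by the size of a decrease. A transcript is called below when the adjusted p of edgeR's quasi-likelihood test is at most 0.05 and the natural-log fold change is at least 0.41 in size, which is a fold of 1.51. In these 9 h contrasts 4 of 4 members were called in each, beside 2.34% of all transcripts tested for low dose against vehicle, 18.4% for high dose against vehicle and 7.55% between doses, and nothing is read from those counts because the contrasts chose the members.

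Levels per length, in the same libraries that chose the members, are given as a description. In vehicle hepatocytes at 9 h, the TPM was 58.9 ± 1.54 for ENSRNOT00000077177, 41.9 ± 7.24 for ENSRNOT00000028781, 17.5 ± 2.25 for ENSRNOT00000003075 and 5.58 ± 0.501 for ENSRNOT00000082585. At the high dose the TPM was 409 ± 18.8, 5.20 ± 0.788, 194 ± 10.2 and 1.07 ± 0.530 in the same order, so ENSRNOT00000003075 stood above ENSRNOT00000028781 where it had stood below it, which follows from the directions they were chosen for.

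**Figure D2:**
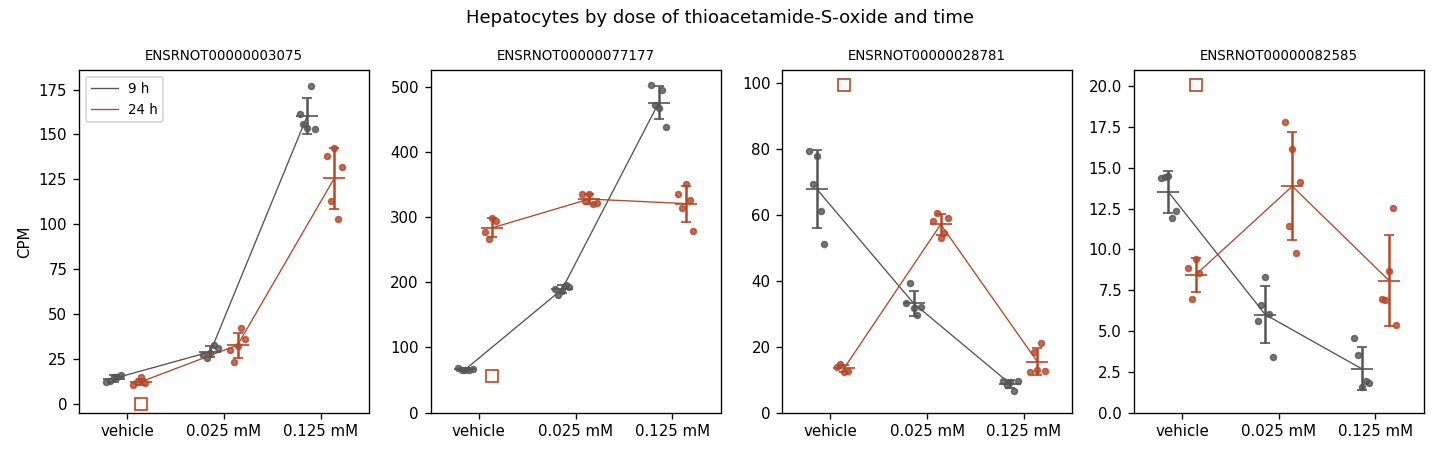
Level of each transcript in hepatocytes (CPM, linear axis) by dose at 9 h (grey) and 24 h (red). Points are libraries, horizontal marks with bars are the mean ± SD, and the open square is vehicle library MS-183 at 24 h, which is left out of the mean. At 9 h all 4 transcripts are ordered by dose, and at 24 h only ENSRNOT00000003075 is, while ENSRNOT00000028781 and ENSRNOT00000082585 peak at the low dose.

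At 24 h in hepatocytes, libraries that had no part in choosing the members were compared. In these and all following bulk measurements, fewer cells of a type and less RNA per cell cannot be told apart. With all libraries, 2 of 4 members were called at the low dose against vehicle (19.4% of all transcripts tested were), 1 of 4 at the high dose (10.4%) and 3 of 4 between the doses (14.9%). Without MS-183 the low dose called 3 of 4 members (37.0% of all transcripts) and the high dose 1 of 4 (26.7%). The median log2 fold change over all transcripts lay between -0.01 and 0.02 in these fits.

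ENSRNOT00000003075 rose with dose at 24 h as well. It stood at 10.3, 11.7, 11.9 and 14.6 CPM in 4 vehicle libraries and at 0 CPM in MS-183, where 3 counts would already be 12.03 CPM. The low-dose libraries stood at 23.3, 29.6, 32.02, 36.0 and 41.9 CPM, and the high-dose libraries at 103.1, 112.7, 131.7, 137.7 and 142.5 CPM. No group overlapped another, with or without MS-183. The low dose raised it by a log2 fold change of 1.46 (SE 0.30, Benjamini-Hochberg adjusted p = 0.00645, edgeR), or 1.36 (SE 0.16, adjusted p = 3.43e-05) without MS-183. The high dose raised it by 3.43 (SE 0.29, adjusted p = 4.46e-05), or 3.34 (SE 0.14, adjusted p = 8.27e-08) without MS-183. High against low dose, a comparison that does not use the vehicle libraries, gave 1.98 (SE 0.15, adjusted p = 5.46e-06). With MS-183 included, 5 of the alternative fits lost the low-dose call (adjusted p from 0.0702 to 0.302) and 2 lost the high-dose call (adjusted p = 0.0883 and 0.109).

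ENSRNOT00000077177 showed no called difference between any of the 24 h hepatocyte groups. It stood at 267, 277, 293 and 298 CPM in 4 vehicle libraries and at 56.2 CPM in MS-183, which rested on 14 counts (95% Poisson interval 30.7 to 94.2 CPM, counting error only). At the low dose it stood at 320, 322, 326, 336 and 336 CPM, and at the high dose at 278, 314, 326, 336 and 351 CPM. The low-dose libraries lay above all vehicle libraries. The high-dose libraries overlapped both groups. With all libraries, the low dose against vehicle gave a log2 fold change of 0.39 (SE 0.38, adjusted p = 0.505, edgeR) and the high dose 0.39 (SE 0.37, adjusted p = 0.563). Without MS-183 the errors were far smaller, and the low dose gave 0.14 (SE 0.05, adjusted p = 0.0365), which is under the fold threshold, and the high dose 0.15 (SE 0.07, adjusted p = 0.109). High against low dose gave -0.01 (SE 0.05, adjusted p = 0.932), an error much smaller than the fold threshold of 0.592 on the log2 scale.

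The level of ENSRNOT00000077177 in vehicle hepatocytes was 284 ± 14.6 CPM (n = 4) at 24 h without MS-183, which is 4.28 times the 9 h level with no overlap. With MS-183 the ratio was 3.59, and the 2 groups overlapped. The high-dose level was 1.48 times lower at 24 h than at 9 h, also without overlap. These ratios use the 9 h libraries that chose the member and were not tested.

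ENSRNOT00000028781 was high at the low dose only. It stood at 12.4, 12.6, 13.9 and 14.6 CPM in 4 vehicle libraries and at 99.2 CPM in MS-183 (24.7 counts, 95% Poisson interval 64.9 to 148.03 CPM). On the TPM scale, which includes the intervals that took most reads of MS-183, that library stood at 17.1 and the other vehicle libraries at 6.43 to 8.67. The low-dose libraries stood at 52.98, 54.6, 58.1, 59.1 and 60.6 CPM and the high-dose libraries at 12.2, 12.6, 12.8, 18.2 and 21.1 CPM. All low-dose libraries lay above all high-dose libraries and above every vehicle library but MS-183, whereas high dose and vehicle overlapped.

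For ENSRNOT00000028781, the fall from low to high dose at 24 h was -1.86 on the log2 scale (SE 0.14, adjusted p = 4.90e-06, edgeR). Low dose against vehicle gave 1.53 (SE 0.49, adjusted p = 0.0499) with all libraries and 2.03 (SE 0.06, adjusted p = 3.40e-09) without MS-183. While MS-183 was kept, leaving out any one of MS-181, MS-182, MS-184, MS-185 or the low-dose libraries MS-111 to MS-115 ended this call, with a log2 fold change down to 1.25 and an adjusted p of up to 0.179. High dose against vehicle gave -0.54 (adjusted p = 0.591) with all libraries and 0.17 (SE 0.16, adjusted p = 0.401) without MS-183. The vehicle level without MS-183, 13.4 ± 1.04 CPM (n = 4), was 5.06 times below that at 9 h with no overlap, and with MS-183 it was 2.22 times below and the groups overlapped. Both doses were higher at 24 h than at 9 h (1.72 times at the low and 1.78 times at the high dose), which was not tested.

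ENSRNOT00000082585 stood at 6.95, 8.53, 8.87 and 9.39 CPM in 4 vehicle libraries, at 20.1 CPM in MS-183 (5 counts, 95% Poisson interval 6.51 to 46.8 CPM), at 9.80, 11.4, 14.1, 16.2 and 17.8 CPM at the low dose and at 5.34, 6.88, 6.97, 8.70 and 12.6 CPM at the high dose. In TPM the order of MS-183 was turned around, since it held the lowest value of its group, 2.32 against 2.75 to 3.51. The high dose against the low dose gave a log2 fold change of -0.75 (SE 0.22, adjusted p = 0.0181, edgeR), although 1 high-dose library lay within the low-dose range and limma on log2(TPM + 1) missed the threshold (adjusted p = 0.0509). Low dose against vehicle gave 0.54 (SE 0.25, adjusted p = 0.155) with all libraries and passed at 0.65 (SE 0.18, adjusted p = 0.00821) without MS-183. High dose against vehicle gave -0.24 (adjusted p = 0.843), or -0.10 (SE 0.21, adjusted p = 0.733) without it.

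In renal cells, 2 of the 4 transcripts responded to the high dose at 24 h and another one at 9 h. Of 4 members, 3 passed the filter on low counts in the renal comparisons, and ENSRNOT00000028781 did not. At 9 h, 0 of the 3 were called at the low dose (6.69% of all transcripts, and 0 members at an unadjusted p under 0.05 or by DESeq2) and 1 at the high dose (19.1%). At 24 h, 0 of the 3 were called at the low dose (0.0622% of all transcripts, and 0 members at an unadjusted p under 0.05 or by DESeq2) and 2 at the high dose (26.9%). Between the doses, 1 was called at 9 h (12.7%) and 2 at 24 h (19.7%).

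ENSRNOT00000003075 rose in renal cells at 24 h with 0.500 mM. The vehicle libraries stood at 1.31, 1.40, 1.54, 1.77 and 1.89 CPM, the low-dose libraries between 1.15 and 1.75 CPM, and the high-dose libraries at 8.81, 9.27, 9.33, 9.47 and 9.52 CPM. The high dose lay above every other renal library at either time, and the log2 fold change was 2.50 against vehicle (SE 0.13, adjusted p = 7.00e-08, edgeR) and 2.46 against the low dose (SE 0.20, adjusted p = 1.30e-05). At 9 h the same 0.500 mM gave 3.56 ± 0.257 CPM against 3.70 ± 0.378 CPM in vehicle, a log2 fold change of -0.03 (SE 0.10, adjusted p = 0.852). The response at 24 h exceeded that at 9 h by 2.52 on the log2 scale (SE 0.15, adjusted p = 1.53e-10 for the difference of the responses).

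The low dose, 0.125 mM, left ENSRNOT00000003075 at 1.47 ± 0.254 CPM in renal cells at 24 h, a log2 fold change of 0.03 (SE 0.24, adjusted p = 0.977). Hepatocytes received the same concentration as their high dose. The response of hepatocytes to 0.125 mM at 24 h exceeded that of renal cells by 3.46 on the log2 scale (SE 0.36, adjusted p = 3.02e-06), or 3.37 (SE 0.24, adjusted p = 9.90e-09) without MS-183. Of the 4 members this was the 1 called in that comparison (7.23% of all transcripts with MS-183, and 17.4% and again 1 member without it). With all libraries the difference of the responses was 0.47 (SE 0.56, adjusted p = 0.705, edgeR) for ENSRNOT00000077177 and 0.32 (SE 0.59, adjusted p = 0.842) for ENSRNOT00000082585. Without MS-183 the differences were 0.20 (SE 0.30, adjusted p = 0.698) and 0.40 (SE 0.58, adjusted p = 0.687) in the same order. Neither was called. ENSRNOT00000028781 had 0 to 1 count per renal library here and passed the count filter through hepatocytes only. It had no renal response to compare, so nothing is read from its fitted differences of 1.53, or 2.26 without MS-183.

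In vehicle renal cells, ENSRNOT00000003075 fell with time in culture, from 3.70 ± 0.378 to 1.58 ± 0.245 CPM between 9 and 24 h, a log2 fold change of -1.14 (SE 0.15, adjusted p = 2.05e-04, edgeR). ENSRNOT00000077177 also passed there, at -1.03 (SE 0.33, adjusted p = 0.0350), so that 2 members were called where 9.10% of all transcripts were. Leaving out MS-121, MS-124, MS-136, MS-138, MS-139 or MS-140 ended the second call, with an adjusted p of up to 0.0754 and a log2 fold change between -1.18 and -0.66 over all libraries left out, and 5 of the alternative fits did not call it (adjusted p from 0.0580 to 0.0860).

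ENSRNOT00000077177 was rare in renal cells, with 3 to 66 counts per library. At 24 h it stood at 0.448, 0.501, 0.552, 0.645 and 0.652 CPM in vehicle, between 0.212 and 0.952 CPM at the low dose, and at 1.02, 1.13, 1.27, 1.45 and 1.47 CPM at the high dose. The high dose lay above both other groups, with a log2 fold change of 1.13 against vehicle (SE 0.19, adjusted p = 5.40e-04, edgeR). Against the low dose it was 1.20 (SE 0.34, adjusted p = 0.0223), a call that leaving out MS-141, MS-142, MS-143, MS-146 or MS-148 ended, with an adjusted p of up to 0.0566. On log2(TPM + 1) the rise against vehicle was 0.53 (adjusted p = 3.78e-04, limma), which is under the fold threshold and understates changes at such low levels. The response at 24 h exceeded that at 9 h by 1.79 (SE 0.49, adjusted p = 0.00726, edgeR). At 9 h this transcript stood at 1.21 ± 0.644 CPM in vehicle and 0.744 ± 0.321 CPM at the high dose. The 9 h vehicle libraries (0.691 to 2.31 CPM) overlapped the 24 h high-dose libraries. The 24 h rise is thus over a vehicle level lower than that at 9 h.

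ENSRNOT00000082585 fell in renal cells at 9 h with 0.500 mM. The libraries stood at 10.87, 10.91, 12.83, 12.98 and 14.96 CPM in vehicle, at 9.48, 10.1, 10.9, 12.8 and 14.6 CPM at the low dose, and at 5.45, 5.66, 5.99, 6.54 and 7.42 CPM at the high dose. The high dose lay below both other groups, which overlapped. The log2 fold change was -0.98 against vehicle (SE 0.11, adjusted p = 1.03e-05, edgeR) and -0.88 against the low dose (SE 0.13, adjusted p = 1.97e-04), both just short of a fold of 2. At 24 h the 3 groups overlapped, with means of 9.91 ± 2.35, 6.88 ± 4.16 and 8.85 ± 2.67 CPM, and high dose against vehicle gave -0.22 (SE 0.21, adjusted p = 0.404).

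The response of ENSRNOT00000082585 in renal cells at 24 h differed from that at 9 h by 0.76 (SE 0.24, adjusted p = 0.0218), and without MS-148 the difference was 0.586, under the fold threshold of 0.592. All 3 tested members were called in this comparison of times, beside 14.8% of all transcripts. The lowest low-dose value at 24 h, 0.553 CPM, came from MS-145, the library of its group with 15078809 counts and 19689 detected transcripts.

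**Figure D3:**
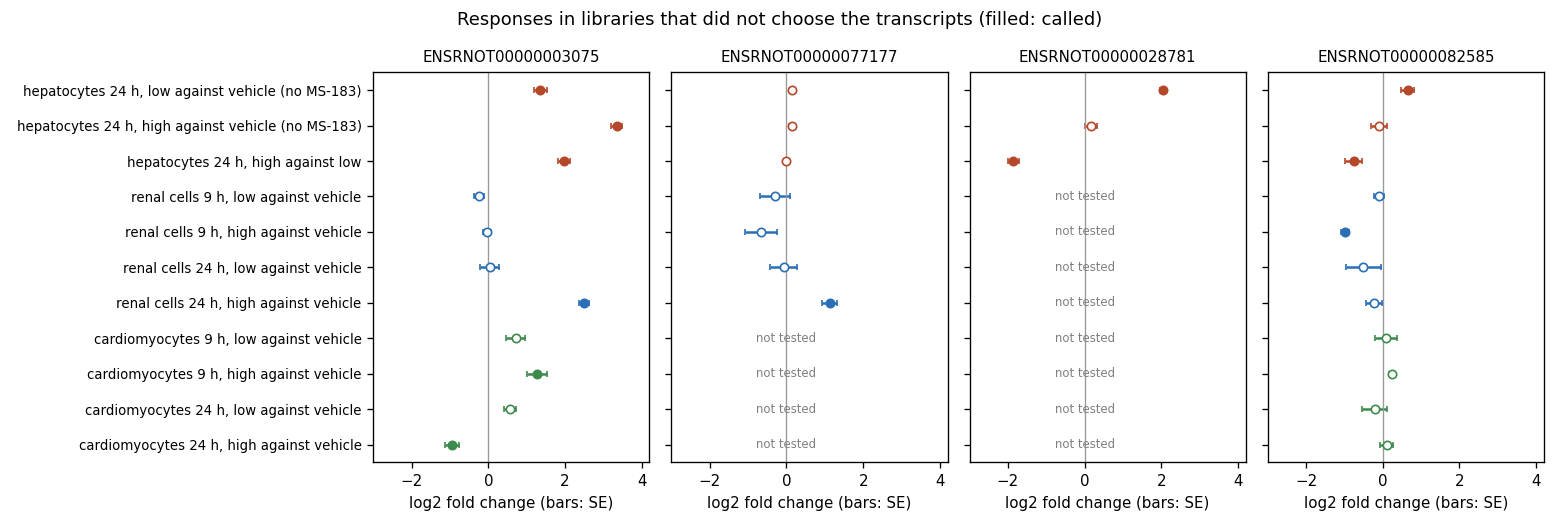
Log2 fold changes (edgeR, bars ± SE) of the 4 transcripts in dose comparisons whose libraries did not choose them. Filled points were called, open points were not, and transcripts under the count filter are marked as not tested. Among the dose comparisons drawn, ENSRNOT00000003075 is called in all 3 cell types, upward in hepatocytes and renal cells and in both directions in cardiomyocytes.

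In cardiomyocytes, 2 of the 4 members passed the count filter in the dose comparisons, ENSRNOT00000003075 and ENSRNOT00000082585. At 9 h, 0 of the 2 were called at the low dose (2.41% of all transcripts, 1 member at an unadjusted p under 0.05 and 0 by DESeq2) and 1 at the high dose (12.6%). At 24 h, 0 were called at the low dose (0% of all transcripts, 1 member at an unadjusted p under 0.05 and 0 by DESeq2) and 1 at the high dose (12.4%). High against low dose called 0 at 9 h (7.69%, 1 member at an unadjusted p under 0.05 and 0 by DESeq2) and 1 at 24 h (5.64%).

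ENSRNOT00000003075 moved in opposite directions at the 2 times in cardiomyocytes at 1.50 mM. At 9 h it stood at 2.48, 2.499, 2.54, 3.15 and 5.35 CPM in vehicle, at 3.84, 3.94, 4.71, 5.31 and 6.85 CPM at the low dose, and at 5.08, 5.97, 7.79, 9.53 and 11.4 CPM at the high dose. Neighbouring groups overlapped, and without vehicle library MS-154, the highest of its group, vehicle lay below both doses. The high dose rose by 1.27 on the log2 scale (SE 0.27, adjusted p = 0.00222, edgeR). The low dose gave 0.71 (SE 0.25, adjusted p = 0.152), which became 0.96 (adjusted p = 0.0377) and a call without MS-154.

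At 24 h the vehicle libraries of ENSRNOT00000003075 in cardiomyocytes stood at 7.22, 7.85, 9.28, 9.45 and 10.8 CPM, the low-dose libraries at 8.46, 9.14, 12.8, 13.2 and 15.3 CPM, and the high-dose libraries at 3.52, 3.80, 4.28, 4.77 and 7.09 CPM. The high dose lay below both other groups, which overlapped. The log2 fold change was -0.95 against vehicle (SE 0.19, adjusted p = 0.00312, edgeR) and -1.51 against the low dose (SE 0.21, adjusted p = 0.00244), and limma on TPM did not call the second of these (adjusted p from 0.107 to 0.147). The difference between the responses at 24 and 9 h was -2.22 (SE 0.34, adjusted p = 1.13e-04), where 7.73% of all transcripts were called and 1 of 2 members.

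The baseline of ENSRNOT00000003075 in cardiomyocytes also rose with time, from 3.20 ± 1.23 CPM in vehicle at 9 h to 8.93 ± 1.42 CPM at 24 h, a log2 fold change of 1.54 (SE 0.22, adjusted p = 3.60e-04, edgeR; 7.70% of all transcripts called). In renal cells it fell over the same time, and that difference between cell types was not tested. At a common 0.5 mM for 24 h, the response of renal cells exceeded that of cardiomyocytes by 1.96 on the log2 scale (SE 0.20, adjusted p = 5.74e-07), and 1 of 3 tested members was called there beside 17.1% of all transcripts.

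ENSRNOT00000082585 was not called at any dose in cardiomyocytes, and its values varied widely in 3 groups. At 9 h it stood at 37.2, 42.1, 45.6, 49.7 and 51.3 CPM in vehicle, at 11.1, 46.0, 54.7, 57.3 and 68.6 CPM at the low dose, and at 53.7, 54.5, 54.8, 55.5 and 58.8 CPM at the high dose. The high dose lay above vehicle with a log2 fold change of 0.25 (SE 0.08, adjusted p = 0.0212, edgeR), under the fold threshold, so it was not called. At 24 h the means were 35.4 ± 4.40 in vehicle, 28.8 ± 15.3 at the low dose and 37.9 ± 10.5 CPM at the high dose, the groups overlapped, and neither dose passed the test.

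The lowest values of ENSRNOT00000082585 in these groups came from libraries with few detected transcripts. They were 11.1 CPM in MS-158 (low dose, 9 h, 19579 transcripts detected), 5.23 CPM in MS-172 (low dose, 24 h, 17277) and 23.7 CPM in MS-178 (high dose, 24 h, 18015). The part of detection in these values was not tested.

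**Figure D4:**
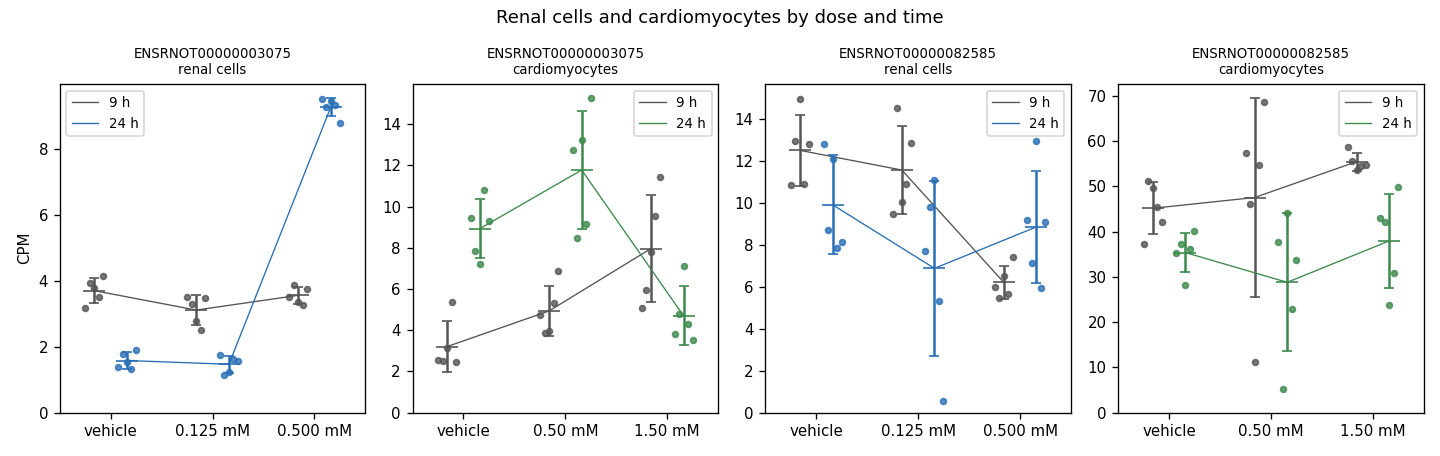
Levels of ENSRNOT00000003075 and ENSRNOT00000082585 (CPM, linear axes from 0) in renal cells and cardiomyocytes by dose at 9 h (grey) and 24 h (colour). Points are libraries, and horizontal marks with bars are the mean ± SD of 5. The high-dose renal cells at 24 h stand above all other renal groups for ENSRNOT00000003075, and its high-dose cardiomyocytes stand above vehicle in mean at 9 h and below it at 24 h.

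ENSRNOT00000077177 was not detected in the 10 vehicle libraries of cardiomyocytes, which allows up to 0.0296 CPM over the group at 9 h and 0.0232 CPM at 24 h. With 1.50 mM for 24 h it had 4, 5, 7, 7 and 10 counts per library, or 0.162 to 0.523 CPM (mean 0.273 ± 0.155). All 5 high-dose libraries held counts where no vehicle library did, and their mean was 11.8 times the vehicle limit for 3 counts over the group. The transcript stayed under the count filter, so this difference has no main test. The low dose at 24 h had 2 counts in 1 library, and the exposed groups at 9 h had 1 and 2 counts in all.

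ENSRNOT00000028781 was near the detection limit in both other cell types. It had 0 to 3 counts per library in renal cells, 0 in all 5 low-dose libraries at 24 h, and 0 to 9 counts in cardiomyocytes. The highest group mean outside hepatocytes was 0.129 ± 0.0976 CPM, in high-dose cardiomyocytes at 24 h, and its dose groups in cardiomyocytes overlapped. It was under the count filter in the dose comparisons of both cell types and was not tested there. At the low dose at 24 h, the hepatocyte mean of 57.1 ± 3.18 CPM was 2531 times the limit that 3 counts over the 5 renal libraries give, although 0.025 mM and 0.125 mM are different doses.

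Between the vehicle cultures of the 3 cell types at 24 h, the members fell into different patterns. Of 4 members, 3 were called between hepatocytes and renal cells (42.7% of all transcripts), 3 between hepatocytes and cardiomyocytes (48.8%) and 3 of 3 tested between cardiomyocytes and renal cells (48.0%), and nothing particular to the members is read from these counts. Without MS-183 the first pair of comparisons called the same number of members, beside 62.3 and 66.2% of all transcripts.

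For ENSRNOT00000003075, vehicle hepatocytes at 24 h exceeded renal cells by 2.90 on the log2 scale, or 3.003 (SE 0.16, adjusted p = 2.77e-08, edgeR) without MS-183. Limma on TPM with MS-183 kept did not call this difference, with log2 fold changes of 1.13 to 1.39 (adjusted p from 0.195 to 0.542). Cardiomyocytes exceeded renal cells by 2.58 (SE 0.16, adjusted p = 6.59e-08). Hepatocytes and cardiomyocytes differed by 0.41 (SE 0.40, adjusted p = 0.426), or 0.38 (SE 0.14, adjusted p = 0.0267) without MS-183, neither of which was called. At 9 h, vehicle hepatocytes (11.8 to 15.7 CPM) lay above vehicle renal cells (3.17 to 4.15 CPM) and cardiomyocytes (2.48 to 5.35 CPM) with no overlap, which was not tested because those hepatocyte libraries chose the member.

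ENSRNOT00000077177 in vehicle hepatocytes at 24 h, without MS-183, exceeded renal cells by 9.06 on the log2 scale (SE 0.10, adjusted p = 5.31e-13, edgeR, and 8.90 with MS-183). Its mean there was 12211 times the limit of cardiomyocytes. ENSRNOT00000028781 stood at 13.4 CPM in the same hepatocyte libraries, against means of 0.0151 CPM in renal cells and 0.0552 CPM in cardiomyocytes. The renal and cardiomyocyte groups held 2 and 7 counts in all, so this transcript passed the count filter through hepatocytes only. Its fitted log2 fold changes over renal cells and cardiomyocytes were 9.26 and 7.75 without MS-183. With MS-183 they were 10.13 and 8.75, and no test is read from any of these values. ENSRNOT00000082585 had the opposite order, with a log2 fold change of hepatocytes over cardiomyocytes of -2.12 (SE 0.12, adjusted p = 4.16e-08, -1.81 with MS-183) and of cardiomyocytes over renal cells of 1.91 (SE 0.15, adjusted p = 3.95e-07). Hepatocytes and renal cells gave 0.07 (SE 0.26, adjusted p = 0.842), or -0.17 (SE 0.17, adjusted p = 0.396) without MS-183.

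When the 18 conditions were ranked by mean CPM, with MS-183 left out, few neighbours were apart beyond the range of their libraries. The ranking includes the 9 h hepatocyte groups that chose the members, so the places of those groups follow in part from that choice. For ENSRNOT00000003075 this held for 4 of 17 neighbouring pairs. They set apart high-dose hepatocytes at 9 h (160.2 CPM), then high-dose hepatocytes at 24 h (125.6 CPM), then the low-dose hepatocytes, and, at the bottom, vehicle and low-dose renal cells at 24 h (1.58 and 1.47 CPM). For ENSRNOT00000077177 it held for 5 of 17 pairs, with high-dose hepatocytes at 9 h on top and vehicle hepatocytes at 9 h (66.2 CPM) last among hepatocytes but above every renal group.

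For ENSRNOT00000028781, 4 of 17 neighbouring pairs were apart, all of them between hepatocyte groups or just below them. The highest pair, vehicle at 9 h and low dose at 24 h, overlapped, and the lowest hepatocyte group was high dose at 9 h. For ENSRNOT00000082585, 0 of 17 neighbouring pairs were apart, with the 6 cardiomyocyte groups on top (28.8 to 55.5 CPM) and high-dose hepatocytes at 9 h at the bottom (2.67 CPM). Here too, the places of the 9 h hepatocyte groups follow in part from how the members were chosen.

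Across the 18 conditions, mean log2 CPM of the members correlated with a Pearson r of 0.93 between ENSRNOT00000077177 and ENSRNOT00000028781, although they were chosen for opposite responses at 9 h. The correlation was 0.81 between ENSRNOT00000003075 and ENSRNOT00000077177 and 0.72 between ENSRNOT00000003075 and ENSRNOT00000028781, and between -0.60 and -0.37 for each of the 3 with ENSRNOT00000082585. These values describe conditions of which 6 share each cell type, and the hepatocyte groups stand apart from the others for ENSRNOT00000077177 and ENSRNOT00000028781. For ENSRNOT00000003075, vehicle hepatocytes overlapped low-dose cardiomyocytes at 24 h.

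Among 19268 transcripts ranked by the same measure over 18 conditions, the closest to ENSRNOT00000028781 was ENSRNOT00000021129 (r = 0.995) and the closest to ENSRNOT00000077177 was ENSRNOT00000004756 (r = 0.988). For these 2 members, 630 and 600 transcripts had an r of at least 0.95, so such patterns were common. A high r did not always mean a shared response to dose. In hepatocytes at 9 h, ENSRNOT00000021129 stood at 4.49, 2.28 and 1.18 CPM in vehicle, low and high dose. The means of ENSRNOT00000004756 there were 1062, 1142 and 1235 CPM, and its vehicle mean at 24 h was lower, at 508 CPM, where that of ENSRNOT00000077177 was higher. The closest to ENSRNOT00000082585 was ENSRNOT00000018689 (r = 0.969), the 1 transcript past 0.95. For ENSRNOT00000003075 no transcript reached 0.95, and the closest, ENSRNOT00000008101 (r = 0.938), had group means of 2.77 to 3.96 CPM in hepatocytes. The 18 conditions include the 9 h hepatocyte groups that chose the members, so how many transcripts resemble a member depends in part on that choice.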

How the data were processed

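Levels were taken for 4 transcripts in 90 libraries. The members, and the lists planned with them, were chosen with earlier results of these data known. The authors made poly-A-enriched stranded libraries, sequenced 150-bp pairs and ran kallisto 0.42.4 on the Rnor_6.0 transcriptome. The deposited tables give, per target, estimated counts (unnormalized) and TPM (corrected for length and scaled to a fixed sum over 40071 transcripts and 25095 genomic intervals). CPM was computed here over transcripts only.

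Counts were rounded and all transcripts fitted with edgeR 4.0.16 in R 4.3.3 (filterByExpr, TMM, quasi-likelihood F-test, Benjamini-Hochberg adjustment over the transcripts tested), using only the groups compared. This was done for 24 comparisons with a test and 3 at 9 h in hepatocytes without one. A call needs an adjusted p no higher than 0.05 and a fold change of 0.41 or more on the natural-log scale. The SE is the log2 fold change divided by the root of the F statistic. Named transcripts are the members and, for each, the one with the highest Pearson r of mean log2(CPM + 0.5) over conditions, among transcripts reaching 1 CPM. Intervals and floors (3 counts) cover counting error only, at 95%. The code was tested on simulated data.

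Alternatives were DESeq2 1.42.0, upper-quartile factors, no count filter, no fold threshold or a fold of 2, limma 3.58.1 on log2(TPM + 1) and log2(TPM + 0.1), with and without a filter on mean TPM, intervals in the fit, 1 fit over the 6 groups of each cell type, and each library left out. The RefSeq table used holds 47357 genes, 0 of them with an Ensembl identifier, so the planned gene lists and markers could not be matched and no list was scored. No 2 libraries were identical.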

Additional observations from a re-analysis of the deposited data

Results flagged for a closer look

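In 55 groups of 5 libraries tested for 1 library far from the others, 4 were flagged, where chance would flag about 2.75. The hepatocyte vehicle library MS-183 (24 h) gave 3 of them. ENSRNOT00000077177 stood there at 56.2 CPM against 266.7 to 297.9 CPM in the other 4, ENSRNOT00000028781 at 99.2 CPM against 12.4 to 14.6 CPM, and ENSRNOT00000082585 at 20.1 CPM against 6.95 to 9.39 CPM. These values rest on 14, 24.7 and 5 counts. The remaining one was ENSRNOT00000003075 in cardiomyocyte vehicle library MS-154 at 9 h, at 5.35 CPM against 2.48 to 3.15 CPM.

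Responses differed between cell types or times by a test of the difference in 6 results, all on the log2 scale from edgeR. For ENSRNOT00000003075, the difference was 3.46 between hepatocytes and renal cells at 0.125 mM, 1.96 between renal cells and cardiomyocytes at 0.5 mM, 2.52 between 24 and 9 h in high-dose renal cells, and -2.22 between 24 and 9 h in high-dose cardiomyocytes. In high-dose renal cells the difference between 24 and 9 h was 1.79 for ENSRNOT00000077177 and 0.76 for ENSRNOT00000082585.

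In 4 further pairs every exposed library of one cell type lay above all its vehicle libraries and every exposed library of the other lay below, and these differences were not tested. High-dose cardiomyocytes at 24 h stood at 0.526 times vehicle for ENSRNOT00000003075, while hepatocytes and renal cells stood above vehicle. High-dose cardiomyocytes at 9 h stood at 1.23 times vehicle for ENSRNOT00000082585, while hepatocytes and renal cells stood below vehicle. The 9 h hepatocyte values chose this transcript, so its pair of hepatocytes and cardiomyocytes is a description only. The doses differ between the cell types.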

How the results depend on the processing

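Of 1448 alternative values of 70 log2 fold changes, 1396 stayed on the same side of the threshold, called or not, 49 lost a call, 3 gained one and 0 reversed, and no direction was compared where neither value was called. These values include the refits without 1 library, which share most of their data with the main fit. They also include the changed fold thresholds, which reuse that fit, so the total is not a measure of robustness to method. Of 4 members, hepatocytes at the low dose at 24 h called 1 in place of 2 under DESeq2, upper-quartile factors, no count filter, limma on log2(TPM + 1) with or without its filter, limma on log2(TPM + 0.1) and intervals in the fit. ENSRNOT00000003075 was lost in 5 of these (adjusted p from 0.0702 to 0.302) and ENSRNOT00000028781 under DESeq2 (0.90, adjusted p = 0.257) and upper-quartile factors (1.39, adjusted p = 0.143). At the high dose, limma on log2(TPM + 0.1) and intervals in the fit called 0 in place of 1 (adjusted p = 0.109 and 0.0883). A fold of at least 2 called 0 in place of 1 in renal cells at 9 h, high dose against vehicle and against low dose, and in cardiomyocytes at 24 h, high dose against vehicle. It also ended the calls of ENSRNOT00000082585 in hepatocytes at 24 h, high against low dose (-0.75), and for the renal high-dose response at 24 against 9 h (0.76). The cardiomyocyte comparison called 2 without a count filter and with limma on log2(TPM + 0.1), the added one being ENSRNOT00000077177. Renal cells at 24 h, high dose against vehicle, called 1 in place of 2 with limma on log2(TPM + 1), with or without its filter. Cardiomyocytes at 9 h, high dose against vehicle, called 2 in place of 1 without a fold threshold, and at 24 h, high against low dose, 0 in place of 1 in all 3 limma fits. Renal vehicle at 24 against 9 h called 1 in place of 2 without a count filter, in all 3 limma fits and with all 6 groups in one fit. For ENSRNOT00000003075, vehicle hepatocytes against renal cells at 24 h was lost in the 3 limma fits (1.13 to 1.39 in place of 2.90). Beyond what each setting changes by construction, the cause was not tested.

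Leaving out 1 library gave 1 to 3 calls in hepatocytes at the low dose at 24 h, 1 to 2 in renal cells at 24 h between doses, 0 to 1 for low-dose cardiomyocytes at 9 h, 1 to 2 in renal vehicle over time, 2 to 3 in the renal response between times, and the count as reported in every other comparison. No paired analysis was possible because the groups share no replicate numbers. Depth limits MS-183, ENSRNOT00000028781 outside hepatocytes and ENSRNOT00000077177 in cardiomyocytes.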
